A study of Mus musculus with 24 samples.

Results

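The collagen genes described here were the protein-coding genes whose symbol is Col, a number, the letter a and a second number. There were 44 of them among 55421 mouse gene identifiers in the count table. They were divided by the structure their chains build into 11 fibrillar, 8 basement membrane and 25 other collagens. RNA was sequenced in bulk from alveolar epithelial cells (AECs) of the mouse. Alveolar type 2 cells (AEC2s), which make surfactant and renew the alveolar epithelium, were taken from Krt8+/+ and from Krt8-/- mice. The Krt8-/- animals lack keratin 8, an intermediate filament protein of simple epithelia, in all cells of the body. Cells were collected fresh on day 0 and on days 1, 3 and 7 of flat culture on a stiff surface coated with laminin, where AEC2s leave their starting state. The labels give 3 biological replicates, each with a batch number shared by both genotypes and all days, and each gave 1 library per genotype and day, hence 24 libraries in 8 groups of 3. What the batch number stands for is not stated in the sources used here. The strain, age and sex of the mice were not given in the sources used here, and a flat culture of this kind can hold transitional cells beside cells resembling type 1 cells (AEC1s). The comparisons by day follow the collagens through culture, and the comparisons by genotype ask what loss of keratin 8 does to them.

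Collagens are secreted as chains that wind around each other into a long helix, and the family is sorted by what those helices assemble into. Fibrillar collagens (types I, II, III, V, XI, XXIV and XXVII) pack into the banded fibrils that carry tension and accumulate in lung fibrosis, and fibroblasts are their best known source. Type IV collagen forms the sheet-like network of basement membranes on which alveolar epithelium rests, and types XV and XVIII are proteoglycans of the same membranes. The remaining types make beaded filaments (VI), anchoring fibrils (VII), short chain lattices (VIII, X), molecules that coat fibrils (the FACITs IX, XII, XIV, XVI, XIX, XX and XXII) or membrane-spanning proteins (XIII, XVII, XXIII, XXV).

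The 6 type IV genes lie in 3 head to head pairs, in which both genes are read outwards from neighbouring start sites. Their start regions are shown because the members of a pair did not change by equal amounts on all days, as described with their levels. In GRCm38, the annotated starts of Col4a1 (chromosome 8, 11198423 to 11312826, minus strand) and Col4a2 (chromosome 8, 11312805 to 11449287, plus strand) overlap by 22 bases. Those of Col4a4 and Col4a3 on chromosome 1 are 72 bases apart, and those of Col4a6 and Col4a5 on chromosome X are 1309 bases apart. The first line gives the shared stretch of Col4a1 and Col4a2 in the annotated first exons of both, at chr8:11312805-11312826 on the plus strand. The second gives the stretch between Col4a4 and Col4a3, at chr1:82586850-82586920, read on the minus strand, which belongs to neither transcript. The remaining lines give the 100 bases before the annotated starts of Col4a5 at chrX:141475285-141475384 on the plus strand and of Col4a6 at chrX:141474077-141474176 on the minus strand. Capitals mark the only motif found, GGGCGG on either strand.
Col4a1 and Col4a2: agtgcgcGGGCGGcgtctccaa
Col4a4 and Col4a3: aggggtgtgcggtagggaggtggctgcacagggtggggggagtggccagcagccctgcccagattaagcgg
Col4a5: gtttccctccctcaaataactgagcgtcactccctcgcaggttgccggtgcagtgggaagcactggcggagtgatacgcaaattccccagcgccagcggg
Col4a6: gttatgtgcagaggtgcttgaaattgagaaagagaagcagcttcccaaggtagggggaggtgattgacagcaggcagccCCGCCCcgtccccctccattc

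The other start regions shown, each 100 bases before the annotated start, are given for pairs whose courses parted within a class. Col3a1 and Col5a1 are fibrillar and were respectively at their highest and among their lowest levels on day 0, and Col6a1 and Col6a3 are chains of type VI collagen that moved in opposite directions. Col3a1 lies at chr1:45311438-45311537 and Col5a1 at chr2:27886325-27886424, both on the plus strand. Col6a1 lies at chr10:76726169-76726268 and Col6a3 at chr1:90843972-90844071, both on the minus strand.
Col3a1: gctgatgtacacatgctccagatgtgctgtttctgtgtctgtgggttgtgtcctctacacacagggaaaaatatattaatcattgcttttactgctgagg
Col5a1: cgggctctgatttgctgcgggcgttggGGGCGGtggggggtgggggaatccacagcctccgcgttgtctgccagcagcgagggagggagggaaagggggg
Col6a1: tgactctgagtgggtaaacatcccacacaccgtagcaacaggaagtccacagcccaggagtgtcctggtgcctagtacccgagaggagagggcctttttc
Col6a3: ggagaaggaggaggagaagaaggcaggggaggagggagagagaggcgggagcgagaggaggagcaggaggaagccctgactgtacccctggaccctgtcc

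All sequences were read from RefSeq promoter entries on GRCm38.p6, where 35 of the 44 collagens had an entry. TATAAA (the TATA box), CCAAT (the CAAT box) and GGGCGG (the GC box) were searched on both strands, and none overlapped another where capitals are printed. Among the 100 bases before the RefSeq start of all 32851 entries, TATAAA occurred in 5.56%, CCAAT in 18.9% and GGGCGG in 24.7%. In windows of 71 bases before that start GGGCGG occurred in 20.7%, and in windows of 22 bases in 7.19%. The 22 bases printed for Col4a1 and Col4a2 lie in annotated exons, so the last share is for a different kind of position. Among the 38 collagen entries, 18 held GGGCGG within 100 bases, 4 held CCAAT and 2 held TATAAA. These matches describe letters and do not identify binding sites.

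Library totals ranged from 10184439 to 19483386 counts. Levels are given in CPM, counts scaled to a common library total with a TMM factor, and values of the 3 replicates are listed in the order 1, 2, 3. Groups are said to overlap or not to overlap among libraries of the same genotype unless genotypes are compared. The labels give separate biological replicates but no number of animals per library, so p-values measure the spread between these replicates. Krt8 stood at 484 to 551 CPM on day 0 in Krt8+/+ AEC2s and at 2954 to 5088 CPM on day 7, and in the 12 Krt8-/- libraries it did not exceed 47.4 CPM. In replicate 1 the Krt8+/+ libraries had summed Y-linked genes at no more than 0.44 CPM and the Krt8-/- libraries had 172.6 to 190.9 CPM, whereas both genotypes of replicate 2 were as low as the former and both of replicate 3 as high as the latter or higher. The X-linked gene Xist was at 62.4 to 79.5 CPM in the Krt8+/+ and 5.91 to 11.9 CPM in the Krt8-/- libraries of replicate 1. In replicate 3 it was at most 2.24 CPM. Whether a library held cells of both sexes was not tested. Sex and genotype therefore cannot be told apart within replicate 1. All 9 AEC2 markers listed, led by Sftpc, fell by day 7 in both genotypes. Of 8 AEC1 markers 6 rose in each genotype, beside 28.6% of all genes tested, and 1 fell in Krt8+/+ and 2 in Krt8-/- AECs. The summed AEC1 mean did not rise, going from 3625 to 3370 CPM in Krt8+/+ and from 4214 to 3120 CPM in Krt8-/- AECs. Its highest gene was Ager on day 0 and Emp2 on day 7. Markers of cells known for collagen synthesis also moved. The summed level of 12 fibroblast markers was 161 to 506 CPM on day 0 and 82 to 114 CPM on day 7 in Krt8+/+ AECs. Of these markers 7 fell (Dcn from 211 to 18.5 CPM) and 2, Mfap5 and Twist2, rose. The summed level of 8 smooth muscle and pericyte markers in Krt8+/+ AECs was 12.5 to 51.6 CPM on day 0 and 1405 to 2833 CPM on day 7. There 6 of 7 tested rose, with Acta2 at 1677 CPM on day 7. In Krt8-/- AECs 7 fibroblast markers fell and 2 rose by day 7, and 6 smooth muscle and pericyte markers rose and 1 fell. Of all genes tested, 28.6% rose and 30.2% fell by day 7 in Krt8+/+ AECs, and 28.6% and 29.9% in Krt8-/- AECs. No fibroblast or smooth muscle marker was at 0 in a whole group, 3 of 8 endothelial markers were at 0 on day 7 in Krt8+/+ AECs (Pecam1, Cldn5 and Emcn), and the mesothelial list reached 987 to 1872 CPM on day 7 through Msln while Upk3b, Wt1 and Lrrn4 fell. The part of these cell types in the collagen values was not tested. In bulk RNA, fewer cells of a type and less RNA per cell cannot be told apart.

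Of the 44 collagens, 35 passed the filter on low counts and were tested, namely all 11 fibrillar, all 8 basement membrane and 16 of the 25 other collagens. The highest group mean was at least 10 CPM for 23 of them, 5 fibrillar, 7 basement membrane and 11 other. A further 12 passed below 10 CPM. The 9 that did not pass were all other collagens and are listed with their total over 24 libraries. Col9a3 had 85 counts, Col10a1 64, Col26a1 52, Col22a1 47, Col28a1 34, Col9a2 30, Col6a4 15 and Col25a1 7. Col9a1 had 2 counts in a single library and was not detected. A count of 0 in a group still allows up to 3 counts, which covers counting error only.

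More collagens were called lower than higher on day 1, and more higher than lower on days 3 and 7, in both genotypes. On day 7 against day 0 in Krt8+/+ AECs, 21 of the 35 tested collagens were called higher and 9 lower at an adjusted p of 0.05 (edgeR quasi-likelihood F test, Benjamini-Hochberg over 18046 genes), beside 28.6% and 30.2% of all genes tested. In Krt8-/- AECs the counts were 19 and 8, beside 28.6% and 29.9%. On day 3 they were 15 and 5 in Krt8+/+ AECs, beside 26.1% and 27.8% of all genes, and 16 and 7 in Krt8-/- AECs, beside 25.4% and 26.6%. On day 1 the balance was the opposite, with 5 higher and 14 lower in Krt8+/+ AECs (all genes 26.2% higher and 28.5% lower) and 3 and 16 in Krt8-/- AECs (all genes 23.7% and 26.9%). The day 1 calls depended most on replicate 2, without which they numbered 10 in Krt8+/+ and 12 in Krt8-/- AECs. Summed AEC2 markers on day 1 were 88990, 15228 and 69388 CPM in replicates 1, 2 and 3 of Krt8+/+ AECs. In Krt8-/- AECs they were 84471, 14388 and 63985 CPM. The part of this difference in the day 1 calls was not tested. All comparisons with day 0 share the 3 day 0 libraries of their genotype.

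From day 1 to day 3, 18 collagens rose and 3 fell in Krt8+/+ AECs, beside 14.4% and 11.9% of all genes, and 19 rose and none of the 35 fell in Krt8-/- AECs, beside 13.4% and 10.2%. From day 3 to day 7, the counts were 4 and 1 in Krt8+/+ AECs (3.11% and 3.47% of all genes) and 5 and 0 in Krt8-/- AECs (4.4% and 6.15%). Leaving out 1 replicate changed these last counts to 1 to 4 and 1 to 5, and the count was 1 without replicate 2 in both genotypes. On day 7, 27 of the 35 collagens were called in the same direction in both genotypes, beside 52.6% of all genes tested, 3 (Col3a1, Col11a2 and Col24a1) only passed in Krt8+/+ AECs, and none was called in opposite directions. The numbers called the same way were 17 on day 1 and 20 on day 3, beside 44.7% and 45.9% of all genes. Whether a gene that passed in a single genotype differed between genotypes is given by the genotype tests further on.

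**Figure D1:**
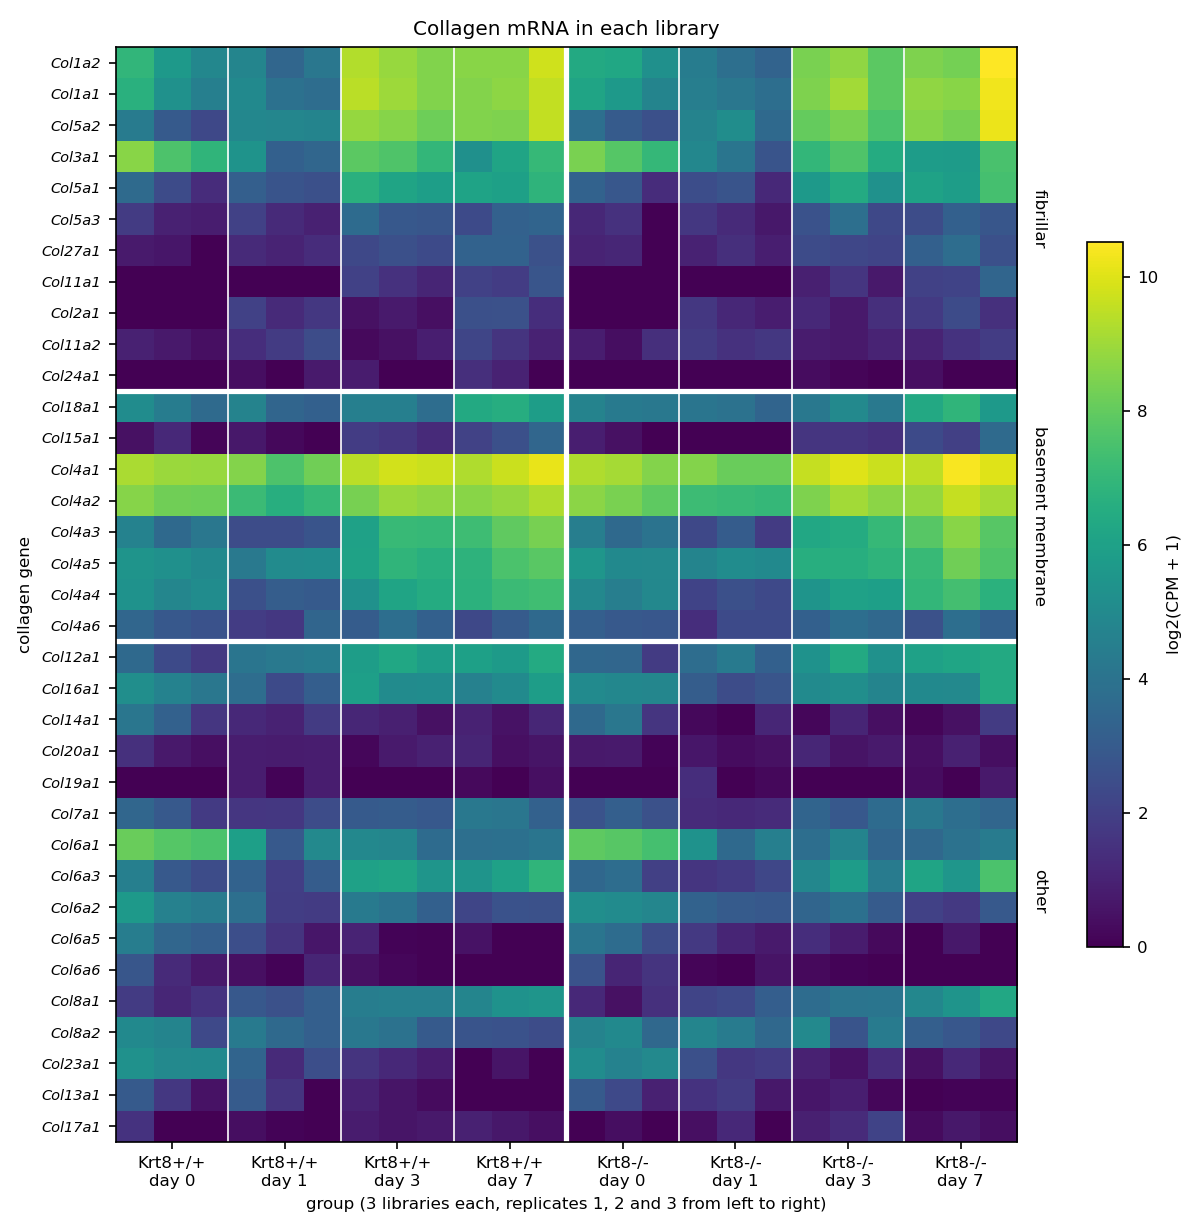
Heat map of log2(CPM + 1) for the 35 collagens that passed the filter, 1 row per gene and 1 column per library, with groups and classes separated by white lines and replicates 1, 2 and 3 from left to right within a group. Col1a1, Col1a2, Col5a1, Col5a2 and the type IV genes other than Col4a6 are brightest on days 3 and 7, Col6a1, Col23a1 and Col6a5 are brightest on day 0, and both genotypes show the same arrangement.

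By class, the fibrillar collagens had the largest median change against day 0 on days 3 and 7, but not on day 1 or between days 3 and 7. On day 7 in Krt8+/+ AECs, 10 of 11 rose and 1 fell, with a median log2 fold change of 3.74 (3.32 with the genes absent on day 0 set to their lower bound), and in Krt8-/- AECs 8 rose and none of the 11 fell, with a median of 3.86 (3.50). Of the 8 basement membrane collagens, 7 rose in each genotype, with medians of 1.90 and 2.15. Of the 16 other collagens tested, 4 rose and 8 fell in each genotype, with medians of -1.21 and -0.86. The median over all 18046 genes was 0.00 in both. Beside these counts, 28.6% of all genes were higher and 30.2% lower in Krt8+/+ AECs, and 28.6% and 29.9% in Krt8-/- AECs. The other collagens that rose were thus near the share of all genes. On day 1 in Krt8+/+ AECs, the basement membrane class had 4 members lower and none of 8 higher. The fibrillar class had 3 higher and 3 lower of 11, and the other class 2 higher and 7 lower of 16. Their medians were -1.01, 0.28 and -1.39 in that order. On that day 26.2% of all genes were higher and 28.5% lower, and both fibrillar counts were near these shares. Among the 23 collagens of at least 10 CPM, 13 had their highest Krt8+/+ mean on day 7, 3 on day 3 and 7 on day 0, and none on day 1. For Krt8-/- AECs these numbers were 15, 1, 7 and 0.

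As a share of all counts, collagens made up 0.134% ± 0.0473 (SD, n = 3) in fresh Krt8+/+ AEC2s, then 0.0719% ± 0.0163, 0.403% ± 0.0387 and 0.423% ± 0.142 after 1, 3 and 7 days. The corresponding shares in Krt8-/- AECs were 0.131% ± 0.0363, 0.073% ± 0.012, 0.34% ± 0.0672 and 0.516% ± 0.203. The groups did not overlap with day 0 on any of these days, and the exact two-sided permutation p was 0.1 each time, the smallest that 3 against 3 libraries can give. Fibrillar genes went from 0.0293% ± 0.0211 to 0.185% ± 0.0813, a ratio of 6.32, in Krt8+/+ AECs and from 0.0278% ± 0.0125 to 0.239% ± 0.19, a ratio of 8.6, in Krt8-/- AECs (exact permutation p = 0.1 for both). Basement membrane genes went from 0.0742% ± 0.0148 to 0.21% ± 0.0554 in Krt8+/+ and from 0.0739% ± 0.0178 to 0.244% ± 0.0669 in Krt8-/- AECs, ratios of 2.83 and 3.3 (exact permutation p = 0.1). Mean summed CPM, which uses the TMM factor, rose less. Fibrillar genes went from 375 to 1761 CPM in Krt8+/+ and from 359 to 2274 CPM in Krt8-/- AECs. Basement membrane genes went from 962 to 2001 CPM and from 954 to 2357 CPM. On day 1 all collagens fell from 1729 to 684 CPM in Krt8+/+ AECs, more than by share. TMM factors were 0.746 to 0.808 on day 0 and 1.01 to 1.07 on day 7, so shares of all counts overstate these rises relative to scaled CPM. The fibrillar ratios depended on the replicates included, being 3.69 and 3.81 without replicate 3, 12.04 and 13.4 without replicate 1 and 6.29 and 10.7 without replicate 2 in Krt8+/+ and Krt8-/- AECs. Which class gained more differed between replicates. From day 0 to day 7 the fibrillar share rose by 0.084, 0.118 and 0.266 percentage points in replicates 1, 2 and 3 of Krt8+/+ AECs, and the basement membrane share by 0.0674, 0.137 and 0.204. In Krt8-/- AECs the fibrillar gains were 0.0996, 0.0914 and 0.443 and the basement membrane gains 0.0932, 0.24 and 0.177 percentage points. The fibrillar class thus gained more in replicates 1 and 3 and the basement membrane class in replicate 2, in both genotypes. In Krt8+/+ AECs the other collagens stood at 0.0304% ± 0.0115 on day 0 and at 0.0272% ± 0.00766 on day 7, groups that overlapped (exact permutation p = 0.70). That sum was dominated on day 0 by Col6a1, and without it the ratio of day 7 to day 0 was 1.99 in place of 0.893.

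Levels of different genes were compared only per kilobase of exon. In Krt8+/+ AEC2s on day 0, the order was Col4a1 at 69.3 CPM per kb, Col6a1 at 51.7, Col4a2 at 49.3, Col3a1 at 24.1 and Col1a1 at 8.21. Col6a1 and Col4a2 overlapped in range, Col4a1 lay just above both and Col3a1 below both in every library, and Col3a1 and Col1a1 overlapped. On day 7 the order was Col4a1 at 116, Col1a1 at 79.5, Col4a2 at 74.5, Col5a2 at 51.7 and Col1a2 at 44.8 CPM per kb, and neighbours among these 5 overlapped in range. The Krt8-/- order had the same first 5 genes on day 7, with Col4a1 at 139.6 and Col1a1 at 107 CPM per kb. The order below Col4a1 depends on the length used. Per kb of the longest transcript, Col1a2 was second on day 7 in Krt8+/+ AECs at 104 CPM per kb, before Col1a1 at 87.9, Col4a2 at 76.4 and Col5a2 at 74.8, and on day 0 it took the fifth place at 12.4 from Col1a1 at 9.08, while Col3a1 at 42.4 then overlapped with Col4a2 and Col6a1.

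Among the fibrillar collagens, Col1a1 and Col1a2 encode the chains of type I collagen, the main fibril protein of scar and bone. Col1a1 (chromosome 11, 94936224 to 94953042, plus strand) was counted in Krt8+/+ AECs at 100.3, 38.9 and 22.5 CPM (day 0), 31.2, 14.3 and 12.5 (day 1), 699, 501 and 374 (day 3) and 374, 431 and 759.5 (day 7). Col1a1 in Krt8-/- AECs was at 70.1, 49 and 25.6 CPM (day 0), 21.8, 17.2 and 12.9 (day 1), 362, 540.0 and 231 (day 3) and 442, 398 and 1259 (day 7). Days 3 and 7 lay above day 0 in every library of both genotypes, and day 1 lay below day 0 without overlap in Krt8-/- but not in Krt8+/+ AECs. The log2 fold change on day 7 was 3.27 ± 0.57 (SE, edgeR adjusted p = 5.12e-05) in Krt8+/+ and 3.86 ± 0.59 (SE, edgeR adjusted p = 9.98e-06) in Krt8-/- AECs, that is 9.61-fold and 14.5-fold. On day 1 Col1a1 was lower, with a log2 change of -1.48 (edgeR adjusted p = 0.0266) and -1.48 (edgeR adjusted p = 0.0299), calls that were lost without replicate 1 or 2 (edgeR adjusted p = 0.101 and 0.151 in Krt8+/+, 0.0804 and 0.175 in Krt8-/- AECs). Col1a2 (chromosome 6, 4504814 to 4541544, plus strand) followed the same course, at 119.5, 50.8 and 28.1 CPM (day 0), 26.8, 10.02 and 16.9 (day 1), 641, 483 and 374 (day 3) and 406, 404 and 860.3 (day 7) in Krt8+/+ AECs. Krt8-/- AECs had Col1a2 at 82.1, 75.8 and 38.1 CPM (day 0), 20.5, 13.5 and 9.1 (day 1), 337, 440.1 and 234 (day 3) and 359.9, 320.0 and 1472 (day 7). All groups of days 3 and 7 lay above day 0 and all groups of day 1 below it. It rose on day 7 by 3.07 ± 0.60 (SE, edgeR adjusted p = 0.000165) in Krt8+/+ and 3.46 ± 0.61 (SE, edgeR adjusted p = 5.43e-05) in Krt8-/- AECs, and on day 1 it changed by -1.89 (edgeR adjusted p = 0.00974) and -2.19 (edgeR adjusted p = 0.00434). The day 1 call was lost without replicate 1 in Krt8+/+ AECs (edgeR adjusted p = 0.0723) and without replicate 2 in both genotypes (0.0949 and 0.0658).

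Type V collagen joins type I in mixed fibrils and sets their diameter. Col5a2 (chromosome 1, 45374321 to 45503282, minus strand) had Krt8+/+ values of 19.9, 6.93 and 3.87 CPM (day 0), 28.5, 27.1 and 26.2 (day 1), 464, 388 and 289 (day 3) and 369, 359 and 759 (day 7). The Krt8-/- libraries gave 13.3, 7.18 and 4.94 CPM (day 0), 24.9, 34.6 and 11.2 (day 1), 258, 343 and 186 (day 3) and 389, 325 and 1199.8 (day 7). It was the one gene among the 5 main fibrillar collagens called higher on day 1, at 1.37 (edgeR adjusted p = 0.0426) in Krt8+/+ AECs without overlap and 1.47 (edgeR adjusted p = 0.0349) in Krt8-/- AECs with overlap, and both calls were lost without replicate 2 (edgeR adjusted p = 0.182 and 0.276). Without replicate 1 the Krt8+/+ change was 2.3 (edgeR adjusted p = 0.0167). By day 7 it had risen by 5.55 ± 0.64 (SE, edgeR adjusted p = 2.70e-07) in Krt8+/+ and 6.22 ± 0.66 (SE, edgeR adjusted p = 8.88e-08) in Krt8-/- AECs, the largest increases among the 23 collagens of at least 10 CPM. Col5a1 (chromosome 2, 27886425 to 28039514, plus strand) started lower, at 11.5, 4.33 and 1.55 CPM (day 0), 8.14, 5.68 and 4.95 (day 1), 101, 69.1 and 57.9 (day 3) and 67.5, 61.7 and 114 (day 7) in Krt8+/+ AECs. Its Krt8-/- values were 8.91, 6.27 and 1.54 CPM (day 0), 4.66, 5.63 and 1.32 (day 1), 50.8, 86.3 and 38.9 (day 3) and 65, 57 and 169.8 (day 7). Day 1 overlapped with day 0 in both genotypes and was not called, at 0.05 (edgeR adjusted p = 0.956) and -0.52 (edgeR adjusted p = 0.525), while days 3 and 7 lay above it in every library. On day 7 the change was 3.74 ± 0.64 (SE, edgeR adjusted p = 4.31e-05) and 4.12 ± 0.65 (SE, edgeR adjusted p = 1.72e-05). In reads per kb, Col5a1 stood at 0.604 ± 0.134 (SD, n = 3) of Col5a2 in fresh Krt8+/+ AEC2s and 0.19 ± 0.0188 after 7 days, and at 0.699 ± 0.321 and 0.182 ± 0.0201 in Krt8-/- AECs, ranges that did not overlap.

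Col3a1 (chromosome 1, 45311538 to 45349706, plus strand), the chain of type III collagen in fine reticular fibrils, departed from this course. Its Krt8+/+ levels were 403, 189.6 and 116 CPM (day 0), 41.4, 8.26 and 10.2 (day 1), 236, 198 and 125 (day 3) and 38.4, 69.7 and 133 (day 7). Its levels in Krt8-/- AECs were 341, 216 and 129 CPM (day 0), 28.5, 16.2 and 5.68 (day 1), 126, 195 and 88.1 (day 3) and 55.4, 53.7 and 180.3 (day 7). Day 0 was the highest group in both genotypes, day 1 lay below it without overlap, and days 3 and 7 overlapped with it. The fall on day 1 was -3.57 ± 0.72 (SE, edgeR adjusted p = 0.000327) in Krt8+/+ and -3.77 ± 0.73 (SE, edgeR adjusted p = 0.000234) in Krt8-/- AECs. Day 3 gave -0.34 (edgeR adjusted p = 0.676) and -0.74 (edgeR adjusted p = 0.356), neither past the threshold. On day 7 the change was -1.56 (edgeR adjusted p = 0.0486) in Krt8+/+ and -1.24 (edgeR adjusted p = 0.111) in Krt8-/- AECs. The first of these was a call at the edge of the threshold, which was not passed with replicate as a block (edgeR adjusted p = 0.0869), without replicate 1 (0.437, log2 -0.59), without replicate 2 (0.186) or in DESeq2 (0.0564). Without replicate 3 day 7 was lower in both genotypes, at -2.46 and -2.35 (edgeR adjusted p = 0.00469 and 0.00615).

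The same replicate was highest for these genes on some days. On day 0 all 5 were highest in replicate 1 in both genotypes, where the summed fibroblast markers were 506, 296 and 161 CPM in Krt8+/+ and 358, 338 and 181 CPM in Krt8-/- AEC2s for replicates 1, 2 and 3. On day 7 all 5 were highest in replicate 3, where the same markers were 82, 86.9 and 114 CPM in Krt8+/+ and 81.3, 52.3 and 154 CPM in Krt8-/- AECs. On day 3 all 5 were highest in replicate 1 in Krt8+/+ AECs, with fibroblast markers at 219, 141 and 133 CPM. In Krt8-/- AECs of day 3 all 5 were highest in replicate 2, with these markers at 157, 152 and 86.2 CPM. Smooth muscle and pericyte markers of day 7 were highest in replicate 2 in both genotypes. The day 0 order was not particular to these 5 genes. Of the 23 collagens of at least 10 CPM, 23 in Krt8+/+ and 18 in Krt8-/- AEC2s were highest in replicate 1 on day 0. The part of the markers in these differences was not tested. Without replicate 3 the day 7 changes of Col1a1 were 2.53 and 2.82 in Krt8+/+ and Krt8-/- AECs, those of Col1a2 2.25 and 2.11, those of Col5a1 2.99 and 3.00, and those of Col5a2 4.74 and 5.11. Without replicate 1 they were larger, at 4.28, 4.0, 4.89 and 6.69 for Col1a1, Col1a2, Col5a1 and Col5a2 in Krt8+/+ AECs and at 4.48, 4.9 and 6.98 for Col1a1, Col5a1 and Col5a2 in Krt8-/- AECs, and each of these changes stayed past the threshold.

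**Figure D2:**
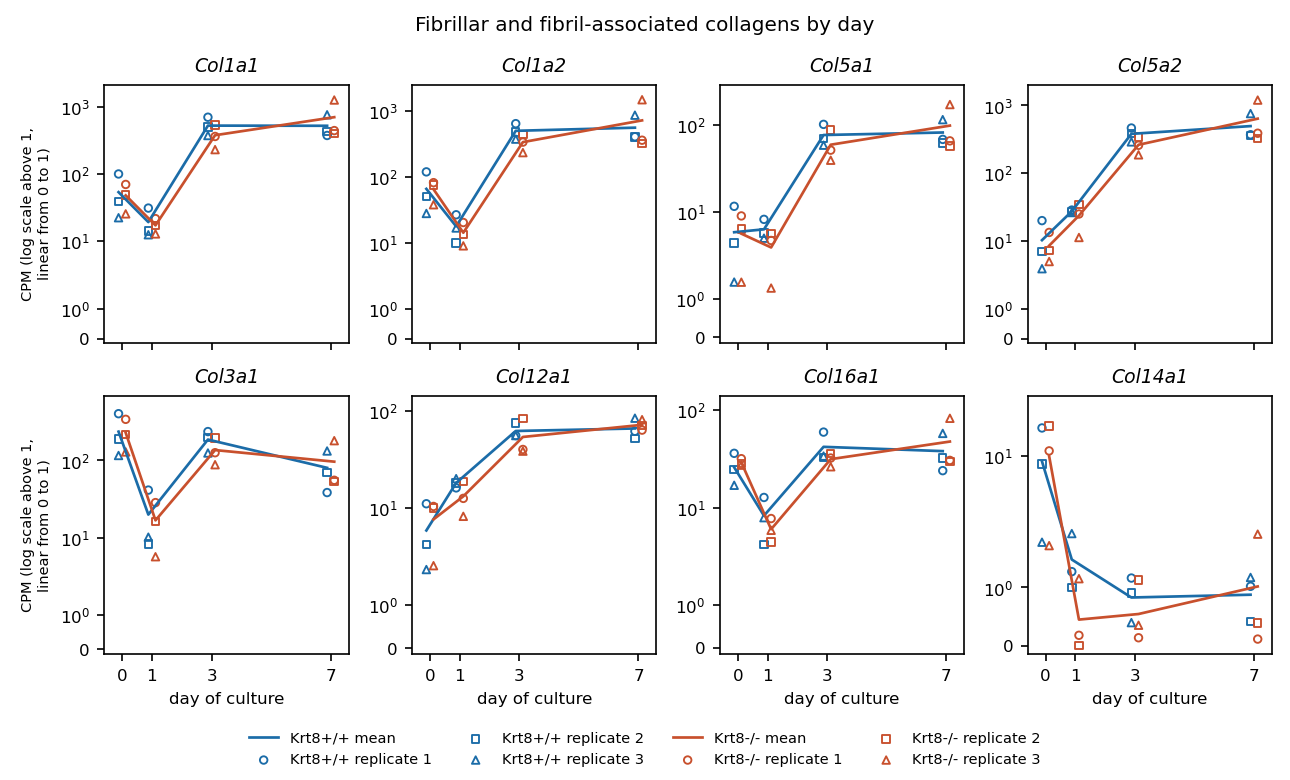
CPM of 5 fibrillar and 3 fibril-associated collagens by day of culture, with a symbol for each library (blue Krt8+/+, orange Krt8-/-, shape for the replicate), a line through the group means and a scale that is linear from 0 to 1 and logarithmic above. Col1a1, Col1a2, Col5a1, Col5a2 and Col12a1 sit above their day 0 libraries on days 3 and 7, Col3a1 is highest on day 0, and Col14a1 is at or below 2.58 CPM in every library after day 0.

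The 6 fibrillar collagens below 10 CPM include chains known from cartilage. Col2a1, the chain of cartilage fibrils, had no count on day 0, and Krt8+/+ AECs gave 3.08, 1.42 and 2.3 CPM (day 1), 0.393, 0.712 and 0.34 (day 3) and 4.96, 5.14 and 1.59 (day 7). Col2a1 levels in Krt8-/- AECs were 2.24, 1.23 and 0.778 CPM (day 1), 1.3, 0.662 and 1.69 (day 3) and 2.46, 4.28 and 1.72 (day 7). Each later group therefore lay above day 0, by at least 26.1-fold on day 1 and at least 43.1-fold on day 7 in Krt8+/+ and at least 33.3-fold on day 7 in Krt8-/- AECs, with the day 0 group set to a floor of 3 counts (edgeR adjusted p = 1.69e-05, 2.97e-06 and 5.16e-06). Col2a1 thus appeared on day 1, before the type I genes rose, and its Krt8+/+ level was lower on day 3 than on day 1, at a log2 of -2.22 (edgeR adjusted p = 0.0125). Col11a1, a minor fibril chain, had no count on days 0 and 1 and in Krt8+/+ AECs gave 3.15, 1.81 and 1.13 CPM (day 3) and 3.13, 2.65 and 5.89 (day 7). Col11a1 in Krt8-/- AECs was at 0.891, 2.11 and 0.633 CPM (day 3) and 3.09, 3.35 and 9.94 (day 7). On day 7 it was at least 45.2-fold and at least 67.3-fold higher than on day 0 (edgeR adjusted p = 5.12e-05 and 2.43e-05).

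Col27a1, a fibrillar chain of developing cartilage, was at 0.699, 0.541 and 0 CPM (day 0), 1.39, 1.09 and 1.49 (day 1), 3.87, 4.86 and 4.14 (day 3) and 8.84, 8.78 and 5.17 (day 7) in Krt8+/+ AECs. Krt8-/- AECs had Col27a1 at 1.08, 1.21 and 0 CPM (day 0), 0.985, 1.68 and 0.855 (day 1), 4.25, 3.67 and 3.45 (day 3) and 8.34, 12.5 and 4.91 (day 7). Days 3 and 7 lay above day 0 in every library, and day 7 rose by 4.07 ± 0.72 (SE, edgeR adjusted p = 6.19e-05) and 3.50 ± 0.68 (SE, edgeR adjusted p = 0.00017). Col5a3, the third type V chain, was at 2.6, 0.974 and 0.774 CPM (day 0), 3.15, 1.42 and 0.949 (day 1), 11.9, 6.54 and 5.95 (day 3) and 4.22, 8.62 and 9.47 (day 7) in Krt8+/+ AECs. The Krt8-/- libraries gave 1.22, 1.82 and 0 CPM (day 0), 2.24, 1.36 and 0.622 (day 1), 5.21, 13.2 and 3.8 (day 3) and 4.51, 8.25 and 6.05 (day 7). It rose on day 7 by 2.29 (edgeR adjusted p = 0.011) and 2.65 (edgeR adjusted p = 0.00537) without overlap, and under the alternatives its adjusted p reached 0.11 in Krt8+/+ AECs, where the change was 3.36 without replicate 1. Col11a2 was at 0.953, 0.649 and 0.332 CPM (day 0), 1.61, 2.59 and 4.41 (day 1), 0.197, 0.389 and 0.85 (day 3) and 3.6, 1.99 and 0.993 (day 7) in Krt8+/+ AECs. Its Krt8-/- values were 0.791, 0.303 and 1.7 CPM (day 0), 2.6, 1.81 and 2.25 (day 1), 0.754, 0.662 and 1.06 (day 3) and 1.09, 1.95 and 2.68 (day 7). In Krt8+/+ AECs it was called higher on day 1 at 2.10 (edgeR adjusted p = 0.00814) and on day 7 at 1.71 (edgeR adjusted p = 0.0244), while day 3 gave -0.45 (edgeR adjusted p = 0.59), and the adjusted p of days 1 and 7 reached 0.0817 and 0.125 under the alternatives. The day 1 change was 2.81 without replicate 1 and 1.36 without replicate 3. Col24a1 had no count on day 0 and at most 1.7 CPM in any library. Its day 7 total in Krt8+/+ AECs was 37 counts, at least 10.02-fold above the floor, with none in replicate 3 and an adjusted p of 0.0418 in edgeR that reached 0.134 under the alternatives.

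Among the basement membrane collagens, Col4a1, Col4a2, Col4a3 and Col4a4 fell on day 1 in both genotypes, and 7 of the 8 were called above their starting level on day 7. All 7 members of at least 10 CPM had their lowest mean on day 1 in both genotypes, and 6 had their highest on day 7, with Col4a6 highest on day 3. Col4a1 and Col4a2 form the network found in nearly all basement membranes. Col4a1 was at 589.5, 486 and 477 CPM (day 0), 379.9, 194 and 304 (day 1), 685, 899 and 815 (day 3) and 624, 827 and 1145 (day 7) in Krt8+/+ AECs. Its levels in Krt8-/- AECs were 616, 549.5 and 379.5 CPM (day 0), 375, 278 and 276 (day 1), 779.9, 1021 and 829.6 (day 3) and 720.1, 1360.5 and 1044 (day 7). Every library of day 1 lay below and every library of days 3 and 7 above those of day 0. The log2 change was -0.82 ± 0.26 (SE, edgeR adjusted p = 0.0119) and -0.73 ± 0.26 (SE, edgeR adjusted p = 0.0246) on day 1 and 0.74 ± 0.26 (SE, edgeR adjusted p = 0.0196) and 1.02 ± 0.26 (SE, edgeR adjusted p = 0.00238) on day 7, in Krt8+/+ and Krt8-/- AECs in that order, which is the order used for all pairs of values that follow. Without replicate 3 the day 7 changes were 0.43 and 0.84 (edgeR adjusted p = 0.311 and 0.0619), and without replicate 2 the day 1 changes were -0.56 and -0.52 (edgeR adjusted p = 0.151 and 0.188). The Krt8-/- day 1 call was also lost without replicate 3 (edgeR adjusted p = 0.0714). Col4a1 on day 3 gave 0.63 (edgeR adjusted p = 0.0486) in Krt8+/+ AECs, which with replicate as a block became an edgeR adjusted p of 0.0561. It was also lost without replicate 2 or 3 (edgeR adjusted p = 0.137 and 0.206).

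Col4a2 was at 388, 299 and 292 CPM (day 0), 143, 96 and 131 (day 1), 325, 486 and 433 (day 3) and 400.2, 462 and 616 (day 7) in Krt8+/+ AECs. Col4a2 levels in Krt8-/- AECs were 414, 343 and 242 CPM (day 0), 149, 137 and 128 (day 1), 361, 537 and 408 (day 3) and 459, 774 and 549 (day 7). Day 1 was below and day 7 above day 0 without overlap, and day 3 overlapped with it. Its log2 change was -1.40 ± 0.24 (SE, edgeR adjusted p = 5.11e-05) and -1.27 ± 0.24 (SE, edgeR adjusted p = 0.000154) on day 1, a larger fall than that of Col4a1, and on day 7 0.60 ± 0.23 (SE, edgeR adjusted p = 0.033) and 0.83 ± 0.23 (SE, edgeR adjusted p = 0.00429). The day 7 calls were lost without replicate 3 (0.33 and 0.70, edgeR adjusted p = 0.373 and 0.0691), and in Krt8+/+ AECs also without replicate 2 (edgeR adjusted p = 0.0537). Per kb, the ratio of Col4a1 to Col4a2 was 1.41 ± 0.0564 (SD, n = 3) in fresh Krt8+/+ AEC2s, then 2.06 ± 0.281, 1.72 ± 0.124 and 1.54 ± 0.139 after 1, 3 and 7 days, and 1.38 ± 0.0533, 1.98 ± 0.225, 1.8 ± 0.115 and 1.55 ± 0.148 in Krt8-/- AECs. The libraries of day 1 had ratios of 1.79 to 2.35 and 1.79 to 2.23, above all day 0 libraries. The pair whose start sites overlap thus moved in the same direction. Their ratio lay above all day 0 libraries on days 1 and 3 and overlapped with day 0 on day 7, in both genotypes.

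Col4a3, Col4a4 and Col4a5 build the specialised network of alveolar and glomerular basement membranes. Col4a3 (chromosome 1, 82586921 to 82722059, plus strand) was at 24.5, 11.1 and 17.1 CPM (day 0), 4.4, 4.51 and 5.69 (day 1), 64.9, 135 and 132 (day 3) and 151, 249 and 326 (day 7) in Krt8+/+ AECs. Col4a3 in Krt8-/- AECs was at 21.9, 11.2 and 15.1 CPM (day 0), 3.85, 7.45 and 2.57 (day 1), 79.2, 86.8 and 129.7 (day 3) and 219, 403 and 219.6 (day 7). Day 1 lay below and days 3 and 7 above day 0 in every library. Its log2 change was -1.86 ± 0.42 (SE, edgeR adjusted p = 0.000896) and -1.78 ± 0.42 (SE, edgeR adjusted p = 0.00146) on day 1 and 3.77 ± 0.42 (SE, edgeR adjusted p = 1.60e-07) and 4.12 ± 0.42 (SE, edgeR adjusted p = 5.79e-08) on day 7, the latter being 13.6-fold and 17.4-fold. The Krt8-/- day 1 change was -2.44 without replicate 2. Col4a4 (chromosome 1, 82448423 to 82586849, minus strand) was at 40.4, 27.7 and 33.7 CPM (day 0), 4.91, 7.51 and 6.85 (day 1), 38.5, 70.7 and 87 (day 3) and 106, 143 and 157 (day 7) in Krt8+/+ AECs. Krt8-/- AECs had Col4a4 at 29.3, 21.6 and 29.3 CPM (day 0), 3.31, 4.92 and 4.04 (day 1), 42.5, 63.2 and 61.2 (day 3) and 125, 168 and 103 (day 7). It fell on day 1 with a log2 change of -2.40 ± 0.28 (SE, edgeR adjusted p = 6.69e-07) and -2.7 ± 0.29 (SE, edgeR adjusted p = 2.59e-07), and on day 7 it was higher by 1.99 ± 0.27 (SE, edgeR adjusted p = 2.03e-06) and 2.3 ± 0.27 (SE, edgeR adjusted p = 3.55e-07), in both cases without overlap. Per kb, Col4a3 passed from 0.538 ± 0.108 of Col4a4 in fresh Krt8+/+ AEC2s to 1.81 ± 0.212 on day 3 and 1.86 ± 0.351 on day 7, and from 0.632 ± 0.142 to 1.9 ± 0.403 and 2.23 ± 0.351 in Krt8-/- AECs. In all 6 libraries of day 0 the ratio was under 1 and in all 12 libraries of days 3 and 7 over 1, while the ratios of day 1 overlapped with those of day 0. The rise over the starting level was thus larger for Col4a3 than for the gene that starts 72 bases from it.

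Col4a5 was at 43.2, 37.6 and 31 CPM (day 0), 18.2, 33.1 and 33.7 (day 1), 65.5, 119 and 98.3 (day 3) and 112, 184 and 228 (day 7) in Krt8+/+ AECs. The Krt8-/- libraries gave 45.7, 30.5 and 30.3 CPM (day 0), 26.2, 34.1 and 31.2 (day 1), 94.7, 97.3 and 114 (day 3) and 135, 301 and 196 (day 7). Unlike its partners it overlapped with day 0 on day 1 and was not called there, at -0.40 (edgeR adjusted p = 0.273) and -0.22 (edgeR adjusted p = 0.565). On day 7 it lay above day 0 in every library, by 2.23 ± 0.31 (SE, edgeR adjusted p = 3.16e-06) and 2.57 ± 0.31 (SE, edgeR adjusted p = 5.80e-07). Col4a6, which in adult tissue belongs to basement membranes under smooth muscle and some epithelia, stayed low at 10.04, 6.49 and 5.2 CPM (day 0), 2.64, 2.25 and 9.9 (day 1), 7.27, 13.1 and 8.27 (day 3) and 3.81, 7.21 and 11.2 (day 7) in Krt8+/+ AECs. Its Krt8-/- values were 7.98, 6.78 and 6.33 CPM (day 0), 1.61, 4.08 and 4.2 (day 1), 8.49, 12.8 and 10.8 (day 3) and 5.09, 13.2 and 8.35 (day 7). No day passed the test against day 0 in either genotype, with day 7 at 0.02 (edgeR adjusted p = 0.975) and 0.33 (edgeR adjusted p = 0.595) and day 1 in Krt8-/- AECs at -1.08 (edgeR adjusted p = 0.0869), which with replicate as a block gave an edgeR adjusted p of 0.0469. Col4a5 over Col4a6 per kb went from 6.35 ± 1.08 on day 0 to 29.8 ± 5.37 on day 7 in Krt8+/+ and from 5.94 ± 0.768 to 28.9 ± 2.31 in Krt8-/- AECs, without overlap.

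Col18a1, the core protein of a basement membrane proteoglycan and source of endostatin, was at 33.5, 20.6 and 11.3 CPM (day 0), 25.4, 9.93 and 8.41 (day 1), 22.5, 22.1 and 12.7 (day 3) and 82.4, 92.2 and 56.8 (day 7) in Krt8+/+ AECs. Its levels in Krt8-/- AECs were 25.4, 18.6 and 17.5 CPM (day 0), 16, 14.8 and 9.49 (day 1), 17.5, 30.0 and 18.2 (day 3) and 79.9, 116 and 50.7 (day 7). Day 3 overlapped with day 0 and was not called, at -0.20 (edgeR adjusted p = 0.702) and 0.09 (edgeR adjusted p = 0.868), and day 7 lay above every earlier library. Its rise came between days 3 and 7, at 2.02 ± 0.42 (SE, edgeR adjusted p = 0.00462) and 1.91 ± 0.42 (SE, edgeR adjusted p = 0.00454). By contrast Col4a1, Col4a3, Col4a4 and Col4a5, but not Col4a2 and Col4a6, were already called above day 0 on day 3. The Col4a4 call was lost without replicate 2 (edgeR adjusted p = 0.0603 and 0.0503) and in Krt8+/+ AECs without replicate 3 (0.118). In Krt8+/+ AECs its day 3 libraries overlapped with day 0. The Krt8-/- call of Col4a1 was lost without replicate 2 or 3 (edgeR adjusted p = 0.0563 and 0.162). Without replicate 1 Col4a2 was called in both genotypes (edgeR adjusted p = 0.048 and 0.0356). Col15a1, its relative, was at 0.381, 1.3 and 0.111 CPM (day 0), 0.587, 0.167 and 0 (day 1), 2.62, 2.14 and 1.36 (day 3) and 3.2, 4.89 and 10.3 (day 7) in Krt8+/+ AECs. Col15a1 levels in Krt8-/- AECs were 0.863, 0.405 and 0 CPM (day 0), 0 in each library (day 1), 2.12, 2.05 and 1.76 (day 3) and 4.17, 3.03 and 11.5 (day 7). Days 3 and 7 lay above day 0 in every library, and day 7 rose by 3.37 (edgeR adjusted p = 0.0035) and 3.84 (edgeR adjusted p = 0.00151). These changes were 2.33 and 2.46 without replicate 3, 4.69 in Krt8+/+ AECs without replicate 2 and 5.25 in Krt8-/- AECs without replicate 1. Day 1 in Krt8-/- AECs had 0 counts against 16 on day 0, at least 5.73-fold lower (edgeR adjusted p = 0.0195, up to 0.198 under the alternatives).

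**Figure D3:**
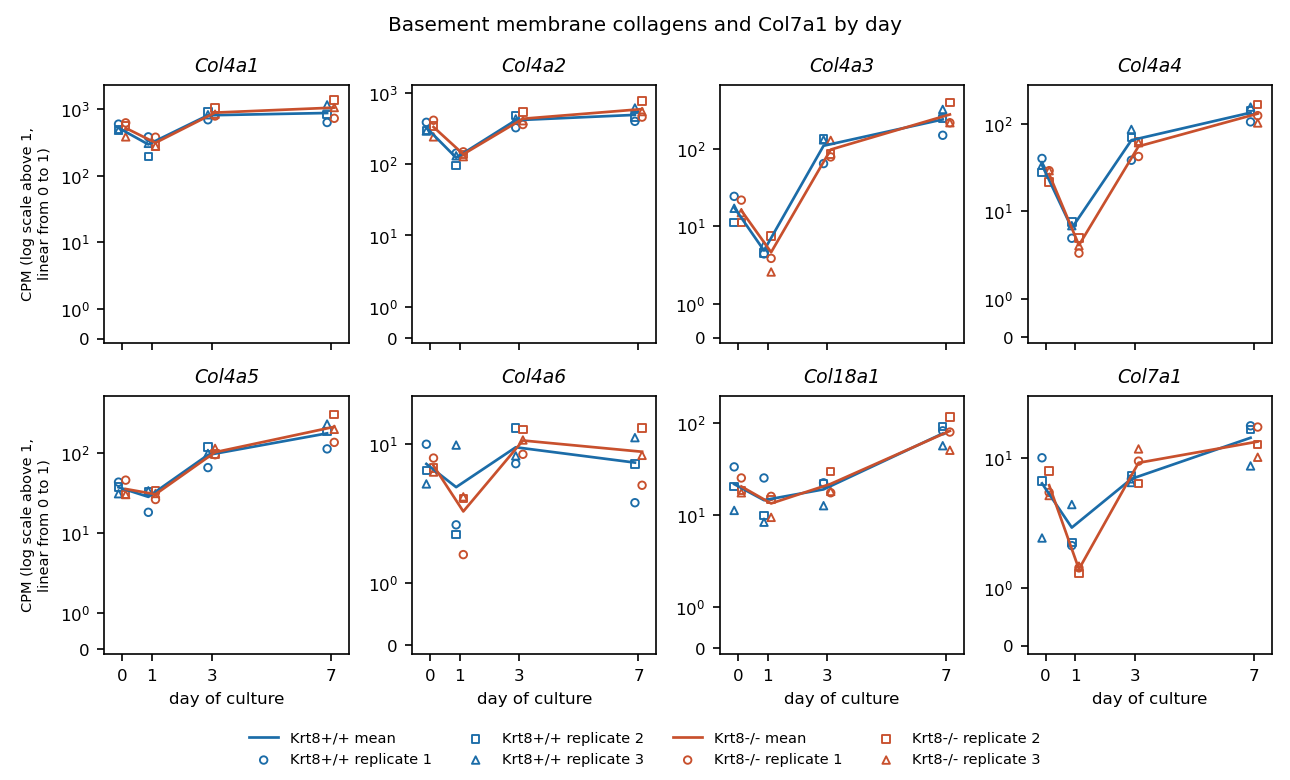
CPM by day of culture for the 7 basement membrane collagens of at least 10 CPM and for Col7a1, with a symbol for each library (blue Krt8+/+, orange Krt8-/-, shape for the replicate), a line through the group means and a scale that is linear from 0 to 1 and logarithmic above. Group means dip on day 1 in all 8 panels, Col4a3, Col4a4 and Col4a5 end above 100 CPM in all 6 libraries of day 7, and the Col18a1 libraries lie wholly above those of day 0 on day 7 but not on day 3.

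Col7a1 encodes the anchoring fibrils that fasten an epithelium to the tissue under its basement membrane. It was at 10.1, 6.71 and 2.43 CPM (day 0), 2.13, 2.25 and 4.41 (day 1), 6.95, 7.38 and 6.52 (day 3) and 17.8, 16.7 and 8.74 (day 7) in Krt8+/+ AECs. Col7a1 in Krt8-/- AECs was at 5.46, 7.99 and 5.17 CPM (day 0), 1.43, 1.3 and 1.48 (day 1), 9.52, 6.38 and 11.8 (day 3) and 17.4, 12.8 and 10.2 (day 7). Day 1 lay below day 0 without overlap in Krt8-/- but not in Krt8+/+ AECs, at -1.14 (edgeR adjusted p = 0.0235) in Krt8+/+ and -2.14 (edgeR adjusted p = 0.000382) in Krt8-/- AECs. Day 7 was higher by 1.15 ± 0.39 (SE, edgeR adjusted p = 0.0166) with overlap and 1.12 ± 0.39 (SE, edgeR adjusted p = 0.0192) without overlap. The Krt8+/+ calls did not hold in all subsets, since day 1 was -0.45 without replicate 1, -0.85 without replicate 2 and -1.94 without replicate 3 (edgeR adjusted p = 0.509, 0.264 and 0.000574), and day 7 gave an edgeR adjusted p of 0.116 without replicate 2. In Krt8-/- AECs the day 7 call was lost without replicate 1 or 2 (edgeR adjusted p = 0.208 and 0.0535).

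Type VI collagen forms beaded filaments between fibrils and basement membranes from chains that assemble together, and its genes parted. Col6a1 was at 279, 215 and 186 CPM (day 0), 61.1, 6.76 and 30.4 (day 1), 28.9, 27.7 and 12 (day 3) and 13.5, 13.8 and 15.8 (day 7) in Krt8+/+ AECs. Krt8-/- AECs had Col6a1 at 239, 219.8 and 170.2 CPM (day 0), 40.4, 11.1 and 22 (day 1), 13.2, 25.8 and 9.71 (day 3) and 10.6, 14.8 and 20.1 (day 7). All later libraries lay below all day 0 libraries, and the log2 change on day 7 was -3.98 ± 0.59 (SE, edgeR adjusted p = 7.50e-06) and -3.79 ± 0.58 (SE, edgeR adjusted p = 1.19e-05). On day 1 the Krt8+/+ change was -2.79, or -3.42 without replicate 1. Col6a2 was at 49.5, 23.5 and 19.6 CPM (day 0), 13.3, 2.75 and 2.58 (day 1), 18.6, 15.1 and 8.39 (day 3) and 3.6, 5.3 and 5.03 (day 7) in Krt8+/+ AECs. The Krt8-/- libraries gave 35.7, 32.5 and 27.3 CPM (day 0), 8.87, 7.19 and 6.45 (day 1), 9.93, 13.7 and 7.11 (day 3) and 3.09, 2.33 and 6.69 (day 7). It also lay below day 0 in every later library, with a log2 change of -2.74 ± 0.54 (SE, edgeR adjusted p = 0.000177) and -2.97 ± 0.54 (SE, edgeR adjusted p = 8.15e-05) on day 7, and the Krt8+/+ value was -2.06 without replicate 1 and the Krt8-/- value -3.64 without replicate 3. Day 3 in Krt8+/+ AECs gave -1.14 (edgeR adjusted p = 0.0591), and with replicate as a block the edgeR adjusted p was 0.0469. Per kb, Col6a1 over Col6a2 was 15.4 ± 4.06 in fresh Krt8+/+ AEC2s and 3.05 ± 0.40 after 3 days, and 12.5 ± 0.541 and 2.9 ± 0.59 in Krt8-/- AECs, without overlap, so by day 3 Col6a1 had lost more than Col6a2. On day 7 the mean ratio was higher than on day 3. It was 6.02 ± 1.10 in Krt8+/+ AECs, below all day 0 libraries, and 8.10 ± 3.44 in Krt8-/- AECs, overlapping with day 0.

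Col6a3, the largest type VI chain, was at 22.2, 6.71 and 4.43 CPM (day 0), 8.95, 2.84 and 7.25 (day 1), 64.2, 70.8 and 43.5 (day 3) and 43.2, 63.4 and 116 (day 7) in Krt8+/+ AECs. Its Krt8-/- values were 10.5, 12.4 and 3.01 CPM (day 0), 2.06, 2.46 and 3.73 (day 1), 28.6, 56.1 and 19.6 (day 3) and 69.8, 45.2 and 188 (day 7). Here days 3 and 7 lay above day 0 in every library, and day 7 rose by 2.7 ± 0.64 (SE, edgeR adjusted p = 0.00106) and 3.55 ± 0.66 (SE, edgeR adjusted p = 0.000108). Without replicate 3 these changes were 1.86 and 2.33 and stayed past the threshold, and without replicate 1 the Krt8+/+ change was 4.01 and without replicate 2 the Krt8-/- change 4.31. Col6a5, an alternative to Col6a3, was at 21.1, 10.1 and 8.08 CPM (day 0), 4.69, 2.0 and 0.542 (day 1), 1.05, 0.0648 and 0.0567 (day 3) and 0.408, 0 and 0 (day 7) in Krt8+/+ AECs. Its levels in Krt8-/- AECs were 15.8, 12.2 and 4.4 CPM (day 0), 2.33, 1.1 and 0.70 (day 1), 1.58, 0.723 and 0.211 (day 3) and 0, 0.623 and 0 (day 7). Every later library lay below every day 0 library, and on day 7 a total of 4 of the 6 libraries had no count. The log2 changes were -6.45 (edgeR adjusted p = 0.000201) and -5.81 (edgeR adjusted p = 0.000394), values that rest on few counts and were -9.94 without replicate 1 in Krt8+/+ AECs and -10.11 without replicate 2 and -4.77 without replicate 1 in Krt8-/- AECs. Col6a6, another alternative chain, was at 6.03, 1.41 and 0.664 CPM (day 0), 0.367, 0.0835 and 1.15 (day 1), 0.393, 0.13 and 0.0567 (day 3) and 0 in each library (day 7) in Krt8+/+ AECs. Col6a6 levels in Krt8-/- AECs were 5.39, 1.11 and 2.01 CPM (day 0), 0.0896, 0 and 0.467 (day 1), 0.206, 0.0602 and 0 (day 3) and 0 in each library (day 7). Without a count on day 7 it was at least 46.8-fold lower than on day 0 in Krt8+/+ and at least 46.8-fold lower in Krt8-/- AECs (edgeR adjusted p = 0.000752 and 0.000617).

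Type VIII collagen forms the hexagonal lattices of vessel and corneal basement layers, and its chains crossed. Col8a1 was at 2.6, 1.19 and 1.88 CPM (day 0), 6.53, 5.18 and 8.07 (day 1), 21.2, 22.4 and 22.6 (day 3) and 26.4, 40.4 and 44.2 (day 7) in Krt8+/+ AECs. Col8a1 in Krt8-/- AECs was at 1.29, 0.405 and 1.78 CPM (day 0), 3.4, 3.95 and 7.93 (day 1), 12.2, 15.7 and 16.2 (day 3) and 28.3, 42.3 and 78.7 (day 7). It lay above day 0 in every library from day 1 on, by 1.76 ± 0.43 (SE, edgeR adjusted p = 0.00162) and 2.09 ± 0.45 (SE, edgeR adjusted p = 0.00065) on day 1 and 4.24 ± 0.44 (SE, edgeR adjusted p = 6.36e-08) and 5.37 ± 0.46 (SE, edgeR adjusted p = 5.77e-09) on day 7. Col8a2 was at 30.5, 25.5 and 3.98 CPM (day 0), 19.3, 10.9 and 8.13 (day 1), 17.8, 14.4 and 6.86 (day 3) and 5.71, 5.3 and 4.44 (day 7) in Krt8+/+ AECs. Krt8-/- AECs had Col8a2 at 25, 30.6 and 10.7 CPM (day 0), 26.7, 19.6 and 10.9 (day 1), 29.8, 5.72 and 19.9 (day 3) and 8.11, 6.15 and 3.82 (day 7). Days 1 and 3 overlapped with day 0 and were not called in either genotype. Day 7 was lower, at -1.96 ± 0.63 (SE, edgeR adjusted p = 0.0112) with overlap in Krt8+/+, where replicate 3 was already low on day 0, and at -1.87 ± 0.62 (SE, edgeR adjusted p = 0.0143) without overlap in Krt8-/- AECs, and leaving out replicate 1 or 2 raised the edgeR adjusted p to 0.12 or 0.111 in Krt8+/+ and to 0.0519 or 0.15 in Krt8-/- AECs. Per kb, Col8a1 over Col8a2 passed from 0.115 ± 0.135 on day 0 to 4.24 ± 1.53 on day 7 in Krt8+/+ and from 0.044 ± 0.0454 to 5.91 ± 5.19 in Krt8-/- AECs, again without overlap.

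Of the collagens that attach to fibrils, Col12a1, which binds type I fibrils in tissues under tension, was at 11.1, 4.22 and 2.32 CPM (day 0), 16.2, 18.3 and 20.2 (day 1), 56.2, 75.7 and 56.3 (day 3) and 62.4, 52.4 and 85 (day 7) in Krt8+/+ AECs. The Krt8-/- libraries gave 10.4, 10.02 and 2.55 CPM (day 0), 12.6, 18.9 and 8.24 (day 1), 40.4, 84 and 38.8 (day 3) and 64.1, 71.7 and 82.1 (day 7). Days 3 and 7 lay above day 0 in every library and day 1 did so in Krt8+/+ AECs, at 1.58 (edgeR adjusted p = 0.00842) against 0.80 (edgeR adjusted p = 0.162) in Krt8-/- AECs. The Krt8+/+ day 1 call was lost without replicate 2 (edgeR adjusted p = 0.0624). On day 7 Col12a1 rose by 3.44 ± 0.49 (SE, edgeR adjusted p = 5.11e-06) and 3.25 ± 0.49 (SE, edgeR adjusted p = 8.83e-06). Without replicate 1 the Krt8+/+ changes were larger, at 2.55 on day 1 and 4.39 on day 7. Col16a1 was at 36.1, 24.7 and 16.9 CPM (day 0), 12.7, 4.17 and 7.86 (day 1), 59.6, 32.8 and 33.8 (day 3) and 23.9, 32.2 and 57.8 (day 7) in Krt8+/+ AECs. Its Krt8-/- values were 31.8, 28.2 and 27.3 CPM (day 0), 7.7, 4.4 and 5.83 (day 1), 32.3, 35.8 and 26.2 (day 3) and 30.5, 29.8 and 82.7 (day 7). It fell on day 1 without overlap, at -1.65 ± 0.43 (SE, edgeR adjusted p = 0.00319) and -2.29 ± 0.45 (SE, edgeR adjusted p = 0.000256), and days 3 and 7 overlapped with day 0, with day 7 at 0.55 (edgeR adjusted p = 0.265) and 0.71 (edgeR adjusted p = 0.147). The Krt8+/+ day 1 call was lost without replicate 2 (edgeR adjusted p = 0.0707).

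Col14a1, a fibril coat protein that is also a common fibroblast marker, was at 16.5, 8.77 and 2.21 CPM (day 0), 1.32, 1.0 and 2.58 (day 1), 1.18, 0.907 and 0.397 (day 3) and 1.02, 0.414 and 1.19 (day 7) in Krt8+/+ AECs. Its levels in Krt8-/- AECs were 11, 17 and 2.08 CPM (day 0), 0.179, 0 and 1.17 (day 1), 0.137, 1.14 and 0.352 (day 3) and 0.114, 0.389 and 2.55 (day 7). It fell by day 7, at -3.36 ± 1.04 (SE, edgeR adjusted p = 0.00879) and -3.28 ± 1.03 (SE, edgeR adjusted p = 0.00962), with overlap in Krt8-/- AECs only. Its day 0 libraries had the same order as the fibroblast markers in Krt8+/+ AEC2s. They did not in Krt8-/- AEC2s, where Col14a1 was highest in replicate 2 and the markers were highest in replicate 1. The calls on day 7 were lost without replicate 1 (log2 -2.73 and -2.66, edgeR adjusted p = 0.112 and 0.107) and without replicate 2 (log2 -2.99 and -2.23, edgeR adjusted p = 0.072 and 0.159). Without replicate 3 they were -4.10 and -5.83. Col19a1 and Col20a1, also of this group, were low and not called on any day against day 0. Col19a1 had no count on days 0 and 3 in either genotype and group means of 0.568 and 0.589 CPM on day 1, at least 6.74-fold and at least 6.21-fold above the day 0 floor (edgeR adjusted p = 0.0515 and 0.0517). Group means of Col20a1 ranged from 0.395 to 0.899 CPM.

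Among the membrane-spanning collagens, Col23a1 was highest on day 0, at 39.3, 29.7 and 31.2 CPM (day 0), 9.53, 1.42 and 4.81 (day 1), 2.03, 1.3 and 0.793 (day 3) and 0, 0.497 and 0 (day 7) in Krt8+/+ AECs. Col23a1 levels in Krt8-/- AECs were 34.1, 24.2 and 30.3 CPM (day 0), 4.93, 2.27 and 2.64 (day 1), 0.959, 0.422 and 1.55 (day 3) and 0.40, 1.32 and 0.51 (day 7). It was close to equal over the day 0 replicates, and every later library lay below every day 0 library. It fell with a log2 change of -2.66 ± 0.60 (SE, edgeR adjusted p = 0.000858) and -3.18 ± 0.62 (SE, edgeR adjusted p = 0.000241) on day 1 and of -7.74 ± 0.86 (SE, edgeR adjusted p = 1.74e-07) and -5.34 ± 0.71 (SE, edgeR adjusted p = 1.87e-06) on day 7. The Krt8+/+ day 7 value depends on the only library with counts, being -11.92 without replicate 2 and -7.00 without replicate 1, and in Krt8-/- AECs it was -6.06 without replicate 2. The Krt8+/+ change on day 1 was -3.27 without replicate 1. Col13a1 was at 6.92, 2.27 and 0.443 CPM (day 0), 7.04, 2.0 and 0 (day 1), 0.983, 0.518 and 0.227 (day 3) and 0 in each library (day 7) in Krt8+/+ AECs. Col13a1 in Krt8-/- AECs was at 6.97, 4.05 and 0.926 CPM (day 0), 1.88, 2.53 and 0.622 (day 1), 0.548, 0.843 and 0.141 (day 3) and 0, 0.0778 and 0.0637 (day 7). Day 7 was at least 55-fold lower in Krt8+/+ AECs (edgeR adjusted p = 0.00146), and in Krt8-/- AECs its 2 counts were 0.0107 (95% counting interval 0.00129 to 0.0394) of the day 0 level (edgeR adjusted p = 0.00222). Col17a1, the hemidesmosome collagen of basal epithelial cells, was at 1.91, 0 and 0 CPM (day 0), 0.293, 0.0835 and 0 (day 1), 0.721, 0.518 and 0.623 (day 3) and 0.952, 0.58 and 0.331 (day 7) in Krt8+/+ AECs. Krt8-/- AECs had Col17a1 at 0, 0.303 and 0 CPM (day 0), 0.358, 1.3 and 0 (day 1), 0.891, 1.45 and 3.31 (day 3) and 0.229, 0.623 and 0.319 (day 7). It was called on day 3 in Krt8-/- AECs, where it stood at 22.7 (95% counting interval 7.49 to 112) times its day 0 level of 3 counts (edgeR adjusted p = 0.0172, up to 0.112 under the alternatives).

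**Figure D4:**
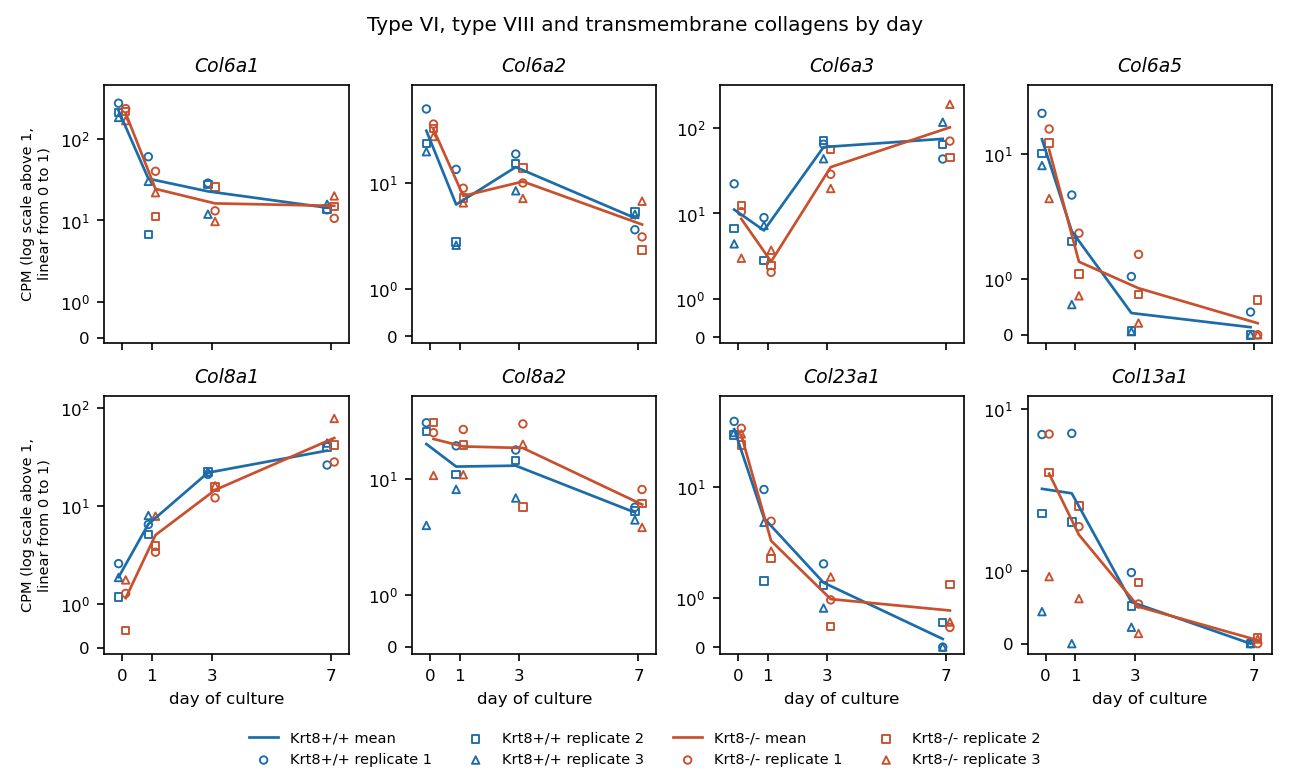
CPM by day of culture for 4 type VI, 2 type VIII and 2 membrane-spanning collagens, with a symbol for each library (blue Krt8+/+, orange Krt8-/-, shape for the replicate), a line through the group means and a scale that is linear from 0 to 1 and logarithmic above. Col6a1, Col6a2, Col6a5 and Col23a1 leave their day 0 range downwards in every later library, Col6a3 and Col8a1 end above it, and both genotypes follow the same course in each panel.

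The genes that modify, export, cleave, crosslink and bind collagens were counted from a list of 46, of which 42 were tested. On day 7, 27 rose and 6 fell in Krt8+/+ AECs and 29 rose and 5 fell in Krt8-/- AECs, beside the shares of all genes given above for that day. On day 3 the counts were 20 and 5 in Krt8+/+ AECs, beside 26.1% and 27.8% of all genes, and 21 and 5 in Krt8-/- AECs, beside 25.4% and 26.6%. On day 1 they were 13 and 12 in Krt8+/+ and 11 and 11 in Krt8-/- AECs, that is 31.0% and 28.6% and 26.2% and 26.2% of the 42, near the shares of all genes on that day. Of the 7 crosslinking enzymes, 7 were higher on day 7 in both genotypes, and 7 and 6 were on day 3. Hydroxylases and glycosyltransferases were divided, with 8 higher and 3 lower of 13 tested in Krt8+/+ AECs and 9 and 2 in Krt8-/- AECs on day 7. Among 7 folding and export genes 3 were higher and 3 lower in Krt8+/+ AECs, among 7 propeptide proteases 4 and 0, and among 8 receptor genes 5 and 0. The 8 genes with the largest Krt8+/+ change on day 7 all rose. Lox, the enzyme that starts crosslinks between fibrils, was at 0.443 to 11.6 CPM on day 0 and 891 to 2068 on day 7, a log2 change of 8.19 ± 0.81 (SE, edgeR adjusted p = 3.45e-08). Itga2, the integrin chain of a collagen receptor, was at 0 to 0.866 CPM on day 0, a total of 8 counts, and 92.3 to 248 on day 7, a change of 9.47 ± 0.83 (SE, edgeR adjusted p = 6.87e-09). The crosslinking enzymes Loxl4 and Loxl3 reached 30.1 to 45.5 and 28.8 to 115 CPM on day 7, higher by 5.98 ± 0.41 (SE, edgeR adjusted p = 2.42e-10) and 5.18 ± 0.66 (SE, edgeR adjusted p = 1.18e-06). Plod2, which hydroxylates the lysines used in crosslinks, and P4ha3, a prolyl hydroxylase chain, rose by 5.99 ± 0.58 (SE, edgeR adjusted p = 2.85e-08) and 6.61 ± 0.75 (SE, edgeR adjusted p = 2.39e-07). Tll1 and Adamts14, proteases that remove propeptides, rose by 5.85 ± 0.59 (SE, edgeR adjusted p = 4.98e-08) and 4.99 ± 1.27 (SE, edgeR adjusted p = 0.00233), the latter from 4 counts on day 0. Leaving out 1 replicate moved the Krt8+/+ changes of 7 of these 8 genes by over 1.5 times, and each stayed past the threshold. Without replicate 1 they were 10.21 (Lox), 8.30 (Itga2), 6.75 (Loxl4), 5.89 (Loxl3), 7.05 (Plod2) and 8.82 (Adamts14), without replicate 2 that of Itga2 was 14.26, and without replicate 3 they were 7.45 (Lox), 4.36 (Loxl3), 5.36 (Plod2), 5.85 (P4ha3) and 4.08 (Adamts14). In Krt8-/- AECs 5 of these genes reached 1172 to 2255 CPM (Lox), 104 to 227 (Itga2), 42.6 to 54.4 (Loxl4), 49.7 to 112 (Plod2) and 126 to 250.2 (Tll1) on day 7. The 6 genes lower on day 7 in Krt8+/+ AECs were P4ha1, P4ha2, P3h2, Ppib, Mia3 and Mia2. They include the catalytic chains of the common prolyl hydroxylases (P4ha1, P4ha2) and an export receptor for procollagen (Mia3).

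Between genotypes no collagen was called. On day 0, 0 of 35 collagens differed between Krt8-/- and Krt8+/+ AEC2s, beside 0.0277% of all genes, and on days 1, 3 and 7 there were 0 as well, beside 0.0166%, 0.0166% and 0.0166%. Over days 1 to 7, weighted by the time each day covers, 0 were called beside 0.0277%, and the test of genotype by day called 0 beside 0.00554%. At an unadjusted p under 0.05 edgeR had 0, 3, 1 and 1 collagens for days 0, 1, 3 and 7, 0 over days 1 to 7 and 0 for genotype by day. DESeq2 called 0 in each of these comparisons and had 0, 3, 1, 1, 0 and 1 at that unadjusted level. So few genes of any kind were called that these counts say little about collagens in particular. The collagens with an unadjusted p under 0.05 in edgeR were Col4a4, Col7a1 and Col15a1 on day 1, Col2a1 on day 3 and Col23a1 on day 7, and they were singled out after their values were seen. On day 1 the log2 difference of Krt8-/- minus Krt8+/+ AECs for Col4a4 and Col7a1 was -0.64 (95% interval -1.27 to -0.01) and -1.07 (95% interval -1.99 to -0.14), and both were lower in the Krt8-/- library of all 3 replicates. Col23a1 was higher on day 7 in all 3 replicates, by 2.22 (95% interval 0.15 to 4.30), at levels of at most 1.32 CPM.

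For the 23 collagens of at least 10 CPM, the difference over days 1 to 7 ran from a log2 of -0.52 (Col14a1) to 0.54 (Col6a5) with a median of -0.14, and 8 were higher and 15 lower in Krt8-/- AECs. All 23 intervals included 0. For Col1a1 the difference was -0.12 (95% interval -0.81 to 0.57), for Col1a2 -0.22 (95% interval -0.94 to 0.51) and for Col3a1 -0.18 (95% interval -1.04 to 0.68), so that differences within these bounds were compatible with these libraries. The type IV genes were measured more tightly. Col4a1 differed by 0.17 (95% interval -0.17 to 0.51), Col4a2 by 0.15 (95% interval -0.15 to 0.46), Col4a3 by -0.02 (95% interval -0.51 to 0.47) and Col4a4 by -0.24 (95% interval -0.58 to 0.11). The median half-width of the 23 intervals was 0.67 and the widest 1.69. By single days, 6, 5, 8 and 20 of the 23 were higher in Krt8-/- AECs for days 0, 1, 3 and 7, and none passed the adjusted threshold. The summed share of collagens in Krt8-/- over Krt8+/+ AECs was 0.976, 1.02, 0.845 and 1.22 for days 0, 1, 3 and 7 (exact permutation p = 0.90, 0.90, 0.30 and 0.60, where 0.1 is the smallest possible). On day 3 fibrillar collagens were lower in the Krt8-/- library of all 3 replicates, at a ratio of 0.685 with overlapping groups (exact permutation p = 0.20), and so were the other collagens, at 0.77 (exact permutation p = 0.20). On day 7 the sum of all collagens was higher in the Krt8-/- library of all 3 replicates, again with overlapping groups.

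**Figure D5:**
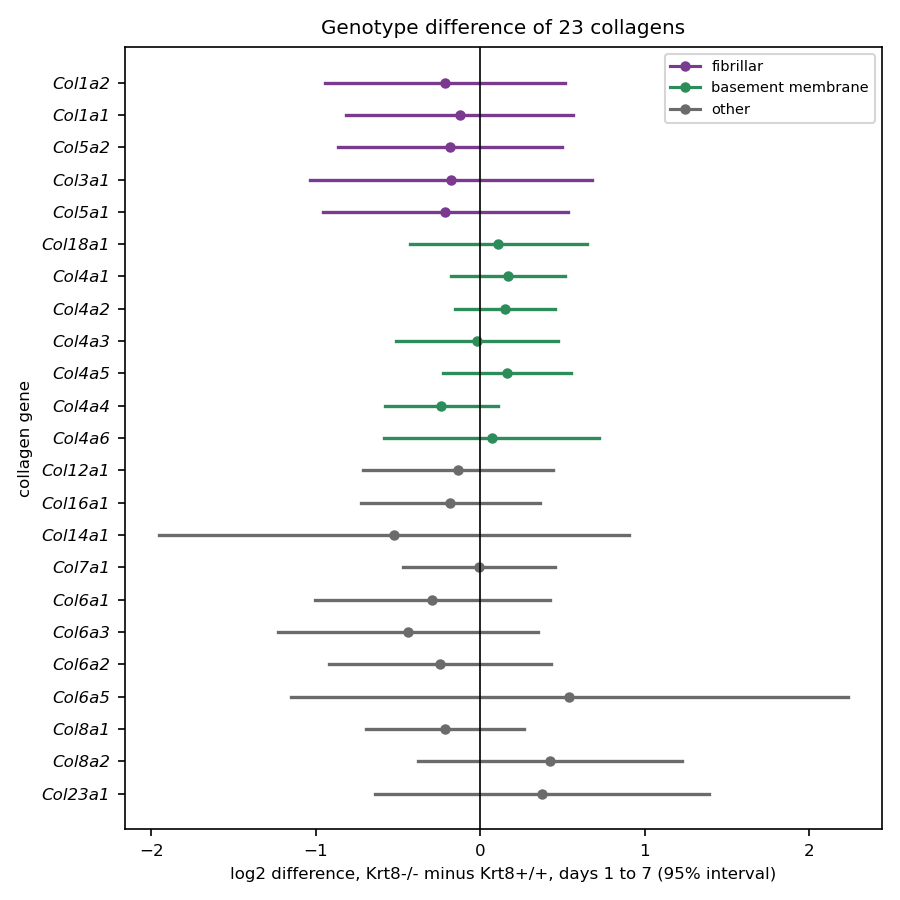
Log2 difference of Krt8-/- minus Krt8+/+ AECs over days 1 to 7 for the 23 collagens of at least 10 CPM, with a point for the edgeR estimate, a bar for its 95% interval and the colour giving the class. All bars cross 0, those of Col4a1 and Col4a2 are among the shortest, and those of Col6a5 and Col14a1 are the widest.

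The measure of exon length decides some comparisons between chains. Type I collagen is built with more Col1a1 than Col1a2 chains, and per kb of all exons the mRNA ratio of Col1a1 to Col1a2 was 1.52 ± 0.0697, 2.1 ± 0.655, 1.97 ± 0.0872 and 1.81 ± 0.182 for days 0, 1, 3 and 7 of Krt8+/+ AECs. The Krt8-/- ratios were 1.37 ± 0.214, 2.37 ± 0.34, 2.07 ± 0.23 and 2.1 ± 0.417. Per kb of the longest transcript the ratios were 0.723, 1.0, 0.94 and 0.863 in Krt8+/+ and 0.653, 1.13, 0.988 and 1.0 in Krt8-/- AECs. By that length Col1a1 was below Col1a2 in all 6 libraries of day 0 and in the Krt8+/+ libraries of days 3 and 7, whereas the libraries of the other groups lay on both sides of 1. The course over days does not depend on it, and the ratio was higher on day 3 than in any day 0 library in both genotypes.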

How the data were processed

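The authors deposited 1 table of whole-number counts per gene for 24 RNA-seq libraries. The submitters' processing notes name cutadapt 2.3, STAR 2.7.8a, RSEM 1.3.3 and GRCm38 without roles, so the counts may be rounded estimates, and use of strand was not stated. GENCODE M21 named 55154 of 55421 identifiers. The 5 reporter entries, without counts, were left out. Counts were filtered with filterByExpr (minimum count 10, minimum total 15), scaled by TMM and fitted in edgeR 4.0.16 (R 4.3.3) as 1 quasi-likelihood model of 8 groups with 16 residual degrees of freedom. P-values were adjusted by Benjamini-Hochberg over 18046 genes at 0.05. The SE of a log2 change was its absolute value over the square root of the quasi-likelihood F. The 95% intervals of genotype differences used this SE and a t quantile with 16 degrees of freedom, so they are approximate. The model was tested on simulated data. Class shares were compared by exact two-sided permutation. Sequences came from RefSeq (GRCm38.p6). Alternatives were DESeq2 1.42.0 size factors and test, no filter, a replicate block, omission of each replicate in turn, and a fit of only the libraries compared. Same-numbered libraries share a batch number in the labels. The main model and the permutation tests did not use this pairing, which entered the tests only as the replicate block. Deviations of same-numbered libraries from their group means correlated between -0.0345 and 0.548 over 42 pairs, above 0.1 in 31. Values in every library are given for collagens reaching a group mean of 10 CPM and for each collagen called against day 0. The members, classes and gene lists were chosen with earlier results of these data known. Totals of 10184439 to 19483386 counts limit precision for the low collagens.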

Additional observations from a re-analysis of the deposited data

How the results depend on the processing

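Of 138 changes against day 0 of the 23 collagens of at least 10 CPM, 135 kept their direction and side of the threshold under the DESeq2 test, 136 without the filter and 133 with replicate as a block. Leaving out replicate 2 ended 30 of these calls, against 12 without replicate 1 and 9 without replicate 3, and the cause was not tested. With replicate as a block the Krt8+/+ calls of Col4a1 on day 3 (edgeR adjusted p = 0.0561) and Col3a1 on day 7 (0.0869) were lost, Col4a6 on day 1 in Krt8-/- AECs (0.0469) and Col6a2 on day 3 in Krt8+/+ AECs (0.0469) were gained, Col4a6 on day 7 in Krt8+/+ AECs turned to -0.14, and no other call of these 23 changed under the pairing. DESeq2 size factors shifted the median gene by at most 0.06 on the log2 scale. Low collagens rest on few counts, and depth limits what can be said of them.

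The number of collagens called ranged from 10 to 19 (Krt8+/+, day 1 against day 0), 12 to 20 (Krt8-/-, day 1 against day 0), 1 to 4 (Krt8+/+, day 7 against day 3) and 1 to 5 (Krt8-/-, day 7 against day 3) when 1 replicate was left out. For day 7 against day 3 it was 9 by DESeq2 and 3 in a fit of only the libraries compared in Krt8+/+ AECs, and 8 without the filter in Krt8-/- AECs, where it was 5 otherwise. Shares turned direction in several settings. Without their largest member the other collagens stood at 2.04 times (day 3) and 1.99 times (day 7) their day 0 share in Krt8+/+ AECs and at 1.6 times on day 3 in Krt8-/- AECs, where TMM-scaled CPM gave 0.838 on day 7. Leaving out 1 replicate gave 0.883 to 1.12 and 0.65 to 1.25 in Krt8+/+ AECs for days 3 and 7 and 0.735 to 1.39 in Krt8-/- AECs for day 7. The Krt8-/- to Krt8+/+ ratio of all collagens on day 1 was 0.962 without Col4a1 and 0.986 by TMM-scaled CPM, that of basement membrane collagens on day 3 0.993 without Col4a1, and that of all collagens over days 1 to 7 1.02 by TMM-scaled CPM. With 1 replicate left out the day 0 ratios were 0.896 to 1.06 (all collagens), 0.842 to 1.24 (fibrillar), 0.931 to 1.06 (basement membrane) and 0.867 to 1.11 (other). On day 1 they were 0.885 to 1.1 (all) and 0.968 to 1.18 (basement membrane), and on day 7 0.936 to 1.44 (fibrillar) and 0.972 to 1.38 (basement membrane). Over days 1 to 7 they were 0.948 to 1.07 (all collagens), 0.776 to 1.08 (fibrillar), 0.996 to 1.2 (basement membrane) and 0.858 to 1.02 (other). The cause was not tested.

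The log2 values that changed sign belonged to results not called. Against day 0, leaving out 1 replicate gave -0.28 to 0.13 (Col18a1, Krt8+/+, day 3), -0.20 to 0.42 (Col18a1, Krt8-/-, day 3), -0.34 to 0.10 (Col4a5, Krt8-/-, day 1), -1.76 to 0.066 (Col4a6, Krt8+/+, day 1), -0.60 to 0.66 (Col4a6, Krt8+/+, day 7), -0.029 to 0.71 (Col4a6, Krt8-/-, day 7), -0.45 to 0.080 (Col3a1, Krt8+/+, day 3), -0.23 to 0.85 (Col5a1, Krt8+/+, day 1), -0.12 to 1.12 (Col16a1, Krt8+/+, day 7), -0.24 to 0.60 (Col7a1, Krt8+/+, day 3), -0.43 to 0.16 (Col8a2, Krt8-/-, day 1) and -0.69 to 0.55 (Col8a2, Krt8-/-, day 3). For Krt8-/- minus Krt8+/+ over days 1 to 7 it gave -0.098 to 0.36 (Col18a1), -0.0048 to 0.29 (Col4a2), -0.12 to 0.14 (Col4a3), -0.099 to 0.31 (Col4a6), -0.30 to 0.097 (Col1a1), -0.34 to 0.018 (Col3a1), -0.49 to 0.017 (Col5a1), -0.41 to 0.018 (Col12a1), -0.30 to 0.016 (Col16a1), -1.49 to 0.12 (Col14a1), -0.10 to 0.14 (Col7a1), -0.49 to 0.081 (Col6a2), -1.31 to 3.00 (Col6a5) and -0.14 to 1.66 (Col23a1).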
